A study of Mus musculus with 12 samples.

Results

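Translation efficiency (TE), the amount of ribosome footprint a transcript carries for its abundance, was compared gene by gene between Mettl5 knockout (KO) and wild-type (WT) mouse liver. For each mouse, TE was taken as log2(RPF + 1) minus log2(input + 1), where RPF are ribosome-protected fragments and input is RNA-seq of the same lysate, and WT1 to WT3 were set against their littermates KO1 to KO3. Genes with a mean of at least 50 over the 6 input columns and over the 6 RPF columns were kept, which gave 5038 of the 10607 genes in the table of normalized values. The values are reads divided by a single factor per library, so levels cannot be compared between genes per length, and a TE value serves only to compare mice. KO mice carried a whole-body deletion made by crossing a line with a floxed exon 2 of Mettl5 to B6.C-Tg(CMV-cre)1Cgn/J, whose Cre is driven by the CMV promoter in all tissues. The floxed allele was made in ES cells of an F1 hybrid of C57bl/6 x 129S6 and the line was backcrossed to B6, and WT mice were the KO animals' littermates. All livers were snap-frozen and lysed in cycloheximide. Each of the 6 mice gave 1 input and 1 RPF library, 12 in all, and the labels give neither age nor sex for single mice.

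METTL5, with its partner TRMT112, places N6-methyladenosine on a single adenosine of 18S rRNA, in the decoding region of the small ribosomal subunit. A ribosome reads every transcript, so a change in its rRNA could alter the initiation or elongation of many transcripts at once, and ribosome profiling measures this as footprints per transcript. Liver is a demanding tissue for such a measurement, because hepatocytes translate very large amounts of a few secreted and metabolic proteins.

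The targeted gene followed its labels. Mettl5 (ENSMUSG00000051730, chromosome 2, 69871198 to 69885615, minus strand, mm10) had normalized input levels of 38.5, 28.2 and 15.7 in WT1 to WT3 and of 8.55, 9.30 and 7.995 in KO1 to KO3. Its RPF levels were 58.4, 47.8 and 53.1 in WT and 8.34, 5.53 and 9.56 in KO, so the genotypes did not overlap in either assay. These levels rest on 5 to 21 input reads, the gene body overlaps Ssb on the opposite strand, and with means under 50 in both assays Mettl5 was not among the genes tested. Input libraries held 2398804 to 5121304 reads on the genes of the table and RPF libraries 4623826 to 9184242, and KO1 had the deepest input library. Intervals from such counts would cover counting error only. All 8 hepatocyte markers examined had reads, and their summed input level was 67606 to 82976 CPM, scaled to the reads on table genes, in WT and 68900.5 to 83606 in KO. Xist had 0 counts in all 6 input libraries, whereas Ddx3y, a Y-linked gene, had 261 to 728.

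Most genes differed little in TE between the genotypes. The median TE change (KO minus WT, log2) over the 5038 genes was −0.0035, −0.037 and −0.046 in litters 1, 2 and 3, and the 5th and 95th percentiles of the fitted changes were −0.46 and 0.46, with a median standard error (SE) of 0.19. In limma with litter as a block, 0 genes had an adjusted p under 0.05 (0% of genes tested), the smallest adjusted p was 0.194, and 544 genes had an unadjusted p under 0.05. No gene named here therefore passed an adjusted limma test on all 3 litters, and a TE change is given as a difference with its SE or litters. Of the 544 genes, 236 were also higher in KO in each of the 3 litters (4.68% of genes tested) and 276 were lower in each (5.48%). The 236 higher genes had a median change of 0.56 and the 276 lower genes one of −0.53. WT and KO values did not overlap in 324 genes with KO higher (6.43%) and in 442 with KO lower (8.77%). When each mouse was centred on its median TE, 852 genes were higher in KO in all 3 litters (16.9%) and 850 were lower in all 3 (16.9%), and both shares are the background against which gene classes are read here. The balance of directions moved with scaling: 46.7% of genes with an unadjusted p under 0.05 were higher in KO as deposited, and 59.5% after TMM factors were applied.

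A count model on the whole reads behind the values, with its own library scaling, called more genes. In edgeR, 21 genes had an adjusted p under 0.05 (0.417% of genes tested), 15 higher and 6 lower in KO, and each of the 21 moved in one direction in all 3 litters. The 15 higher genes included Sdhd (chromosome 9, 50596357 to 50603812), a membrane anchor of succinate dehydrogenase, and Gpx1, a selenium-dependent peroxidase. The 6 lower genes included Rac1, a small GTPase of the actin cytoskeleton, and F9, coagulation factor IX. DESeq2 called 4 genes, all higher in KO. With 3 litters, p-values rest on few pairs of animals. SEs and p-values in limma use a gene variance drawn towards a trend over all genes tested. They therefore do not measure the spread of a gene's own 3 litters alone.

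Litters 2 and 3 resembled each other more than either resembled litter 1. TE changes of litters 2 and 3 correlated across the 5038 genes with r = 0.338, while litter 1 correlated with litter 2 at r = 0.0769 and with litter 3 at r = 0.0727. Genes share libraries, so these coefficients describe the data and are not tests. After centring, 63.2% of genes had the same sign in litters 2 and 3, against 52.4% in litters 1 and 2 and 51.9% in litters 1 and 3. The scatter of changes within a litter was of similar width, with SDs of 0.42, 0.41 and 0.47. In the plot of TE change by pairs of litters, an elongated cloud is seen only for litters 2 and 3.

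**Figure D1:**
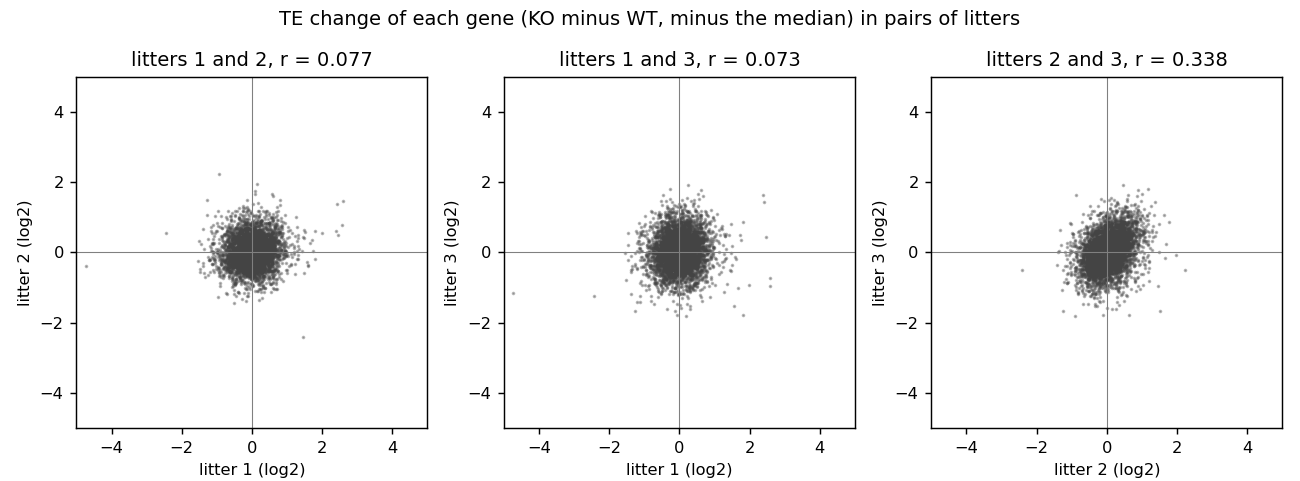
Each point is 1 of the 5038 genes, and the axes give its TE change (KO minus WT, log2, minus the median of all genes) in the 2 litters named. Pearson's r is 0.077 for litters 1 and 2, 0.073 for litters 1 and 3 and 0.338 for litters 2 and 3.

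Of the sequence features examined, the base composition of the coding sequence (CDS) was the one most related to the TE change. CDS GC content, taken from each gene's longest annotated CDS in mm10, was found for 5032 of the genes tested. Its Spearman rho with the mean TE change was 0.44, and it was 0.14, 0.34 and 0.39 in litters 1, 2 and 3. GC content at the third codon position gave 0.36, and CDS length, 5′ UTR length and 3′ UTR length gave 0.057, 0.019 and −0.027. The relation lay mostly in footprints: rho between GC content and the RPF change was 0.25, 0.42 and 0.47 in the 3 litters, and between GC content and the input change 0.11, 0.064 and 0.051. Litter 1 was the weakest of the 3 in TE and in RPF.

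When genes were ordered by CDS GC content and split into 10 bins of about equal size, the outer bins moved apart. In the bin of highest GC content (59.0% to 75.6%), the median TE change relative to all genes was 0.11, 0.28 and 0.37 in litters 1, 2 and 3. The bin of lowest GC content (33.3% to 44.3%) had −0.059, −0.19 and −0.26. Of the 504 genes in the highest bin, 83 were called higher by the unadjusted rule and 0 lower, whereas in the lowest bin, also of 504 genes, 2 were higher and 72 lower. Over all genes tested, the shares were 4.68% higher and 5.48% lower. Taken by mouse, the median TE of the highest bin relative to all genes was −0.35, −0.27 and −0.32 in WT1 to WT3 and −0.26, −0.042 and 0.070 in KO1 to KO3. Every KO mouse thus lay above every WT mouse, by little for KO1. In the lowest bin the same value was 0.088, 0.13 and 0.16 in WT and −0.015, −0.062 and −0.15 in KO, again without overlap. The 236 higher genes had a median GC content of 57.7% and the 276 lower genes one of 47.0%, on either side of the 51.9% of all genes.

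**Figure D2:**
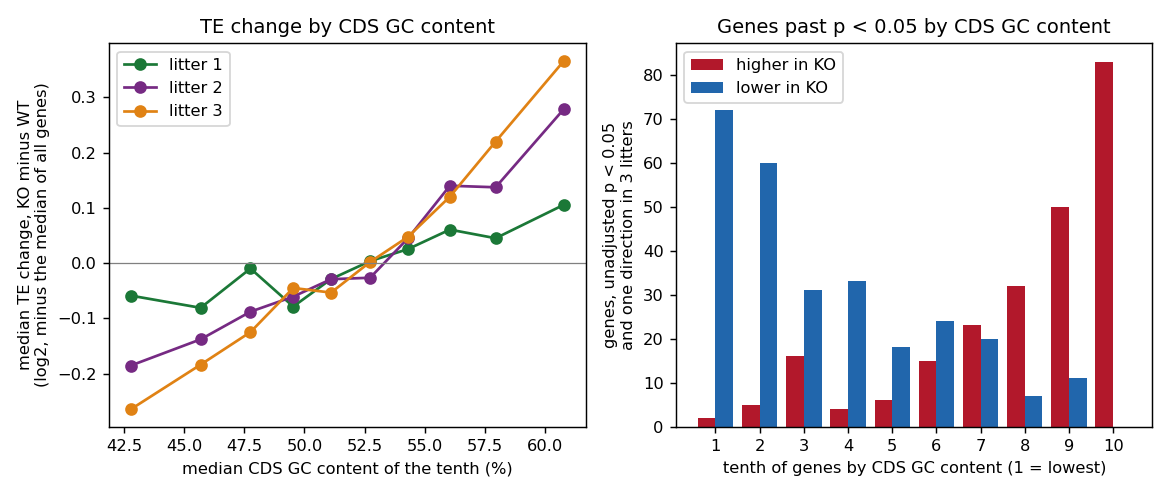
Left, median TE change of each of 10 bins of genes by CDS GC content (log2, KO minus WT, minus the median of all genes) against the bin's median GC content, 1 line per litter. Right, genes per bin with an unadjusted p under 0.05 and one direction in 3 litters. The bin of highest GC content holds 83 higher and 0 lower genes and the lowest holds 2 higher and 72 lower. Over all genes tested, 4.68% were higher and 5.48% lower by this rule.

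The start of the coding sequence is shown for the 3 genes with the smallest p in each direction, to let the composition be read directly. Each line gives the first 60 bases from the start codon (mm10 annotation, coding strand, 5′ to 3′), and capitals mark G or C at the third position of a codon.
Mrpl51: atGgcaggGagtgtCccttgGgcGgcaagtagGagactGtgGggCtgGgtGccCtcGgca
Ctnnbl1: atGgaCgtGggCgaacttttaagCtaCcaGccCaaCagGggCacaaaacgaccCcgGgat
Marcks: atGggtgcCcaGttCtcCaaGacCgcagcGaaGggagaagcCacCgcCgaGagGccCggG
Laptm4b: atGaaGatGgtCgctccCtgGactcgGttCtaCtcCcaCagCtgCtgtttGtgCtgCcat
Mup4: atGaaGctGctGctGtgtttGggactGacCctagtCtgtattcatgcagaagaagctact
Ktn1: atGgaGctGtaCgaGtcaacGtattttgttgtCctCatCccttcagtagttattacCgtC
Mrpl51, Ctnnbl1 and Marcks were higher in KO, with G or C at 13, 13 and 16 of these 20 codons and whole-CDS GC contents of 52.1%, 54.2% and 75.6%. Laptm4b, Mup4 and Ktn1 were lower, with 16, 9 and 11 of 20 and whole-CDS GC contents of 49.8%, 38.0% and 42.5%. Mrpl51 and Laptm4b both stand close to the median GC content of all genes, at 51.9%.

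Mrpl51 (chromosome 6, 125191801 to 125196269, plus strand), a protein of the large subunit of the mitochondrial ribosome, had the smallest p of all genes. Its normalized input was 108, 109.7 and 98.3 in WT1 to WT3 and 93.4, 122 and 91.1 in KO1 to KO3. Its RPF was 49.7, 133 and 205 in WT and 231, 378 and 503 in KO. Footprints were thus higher in every KO mouse than in any WT mouse, while input overlapped, and RPF also varied widely within each genotype. Exons of Mrpl51 overlap Mir3098, a microRNA gene on the same strand, and its part in these reads was not tested. TE was higher by 2.41, 1.34 and 1.40 in litters 1, 2 and 3, a fitted change of 1.72 (SE 0.23, unadjusted p = 3.84e-05, limma adjusted p = 0.194, edgeR adjusted p = 0.000771). Mrpl51 did not stand for its group: of 48 mitochondrial ribosomal protein genes tested, 2 were called higher and 4 lower by the unadjusted rule, against 4.68% and 5.48% of all genes, and the class shifted by 0.045, −0.051 and −0.081 in the 3 litters.

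Laptm4b (chromosome 15, 34238028 to 34284302, plus strand), a lysosomal membrane protein, had the smallest p among lower genes. Its input was 44.0, 42.3 and 66.9 in WT and 77.0, 70.4 and 65.6 in KO, from 24 to 117 reads, and its RPF was 82.8, 86.2 and 76.8 in WT and 73.7, 56.6 and 34.4 in KO. All 3 KO footprint values lay below all 3 WT values, and input was higher in KO in litters 1 and 2. The fitted TE change was −1.13 (SE 0.18, unadjusted p = 0.000152, limma adjusted p = 0.309).

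Sdhd was among the best measured of the leading genes, with 247 to 681 input reads. Its input was flat, at 453, 475 and 476 in WT and 448, 441 and 430.1 in KO. Its RPF was 1488, 1121 and 1714 in WT and 2478, 2294 and 2625 in KO, and the genotypes did not overlap. TE had TE changes of 0.75, 1.14 and 0.76 in the 3 litters (fitted 0.88, SE 0.19, limma adjusted p = 0.309, edgeR adjusted p = 0.00357).

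The other 8 genes with the smallest p among those higher in 3 litters had fitted changes of 0.91 to 1.52, each with a limma adjusted p of 0.309. Ptch1, the Hedgehog receptor, had TE changes of 0.67, 0.81 and 1.55 in the 3 litters, and Pgp, a phosphoglycolate phosphatase, had 0.80, 1.44 and 0.78. Both passed in edgeR, with adjusted p = 0.0194 and 0.0355. Col4a2, a basement membrane collagen chain, had TE changes of 1.27, 0.98 and 0.48, with RPF of 87.1, 122.9 and 188 in WT and 223, 243 and 478 in KO. Marcks, a membrane-bound actin regulator, had TE changes of 0.78, 1.32 and 1.02, and its fitted change of 1.04 became 0.52 once the trend with CDS GC content was removed, the largest relative reduction among the 20 leading genes. Pml, the scaffold of nuclear bodies, had TE changes of 1.07, 0.60 and 1.06, partly through input, where the mean change was −0.45. Ctnnbl1, a splicing-associated protein, had its larger part in input as well, where the mean change was −0.69 against 0.28 in RPF. Ctdnep1, a nuclear envelope phosphatase, and Ankrd60 had fitted changes of 1.07 and 1.52. Ankrd60 was uneven, with TE changes of 2.39, 0.56 and 1.60 and an RPF of 3224 in KO3 against 478 to 1221 in the other mice. The gene bodies of Ctdnep1 and Col4a2 overlap Elp5 and Col4a1 on the opposite strand, and the strand setting of footprint counting is not given in the sources used here.

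Among genes lower in 3 litters, F9 (chromosome X, 59999464 to 60030759) gave a clear separation. Its input was 424, 395 and 342 in WT and 341, 348 and 405 in KO, and its RPF was 1254, 999 and 891 in WT and 639, 593 and 519 in KO. Input overlapped, and every footprint value in KO lay below every WT value. TE had TE changes of −0.66, −0.57 and −1.02 (fitted −0.75, SE 0.17, limma adjusted p = 0.309, edgeR adjusted p = 0.0342). Rac1 had TE changes of −0.45, −1.27 and −0.90 (edgeR adjusted p = 0.0269), with RPF of 464, 869 and 751 in WT and 431, 438 and 337 in KO. Agmo, an enzyme that cleaves ether lipids, had TE changes of −0.91, −0.54 and −0.68, from RPF of 461 to 607 in WT and 269 to 395 in KO, which did not overlap. Ktn1, an endoplasmic reticulum (ER) receptor for kinesin, Sf3b6, a subunit of the U2 spliceosomal particle, Anapc13, a subunit of the anaphase-promoting complex, Txndc12, an ER thioredoxin, and Map4k5, a kinase, had fitted changes of −0.93, −0.93, −0.82, −0.76 and −0.76. In Map4k5 the change lay mostly in input, with means of 0.58 in input and −0.19 in RPF. Mup4, a major urinary protein, had TE changes of −1.12, −0.53 and −1.29, but its near-identical copies make its reads uncertain. Rac1, Anapc13 and Map4k5 overlap Daglb, Cep63 and Atl1 on the opposite strand. Among class members described below, Elovl1, Srpr, Spcs1 and Col4a1 also overlap Cdc20, Fam118b, Glt8d1 and Col4a2 on the opposite strand. Klkb1 overlaps Gm45753 on its own strand.

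**Figure D3:**
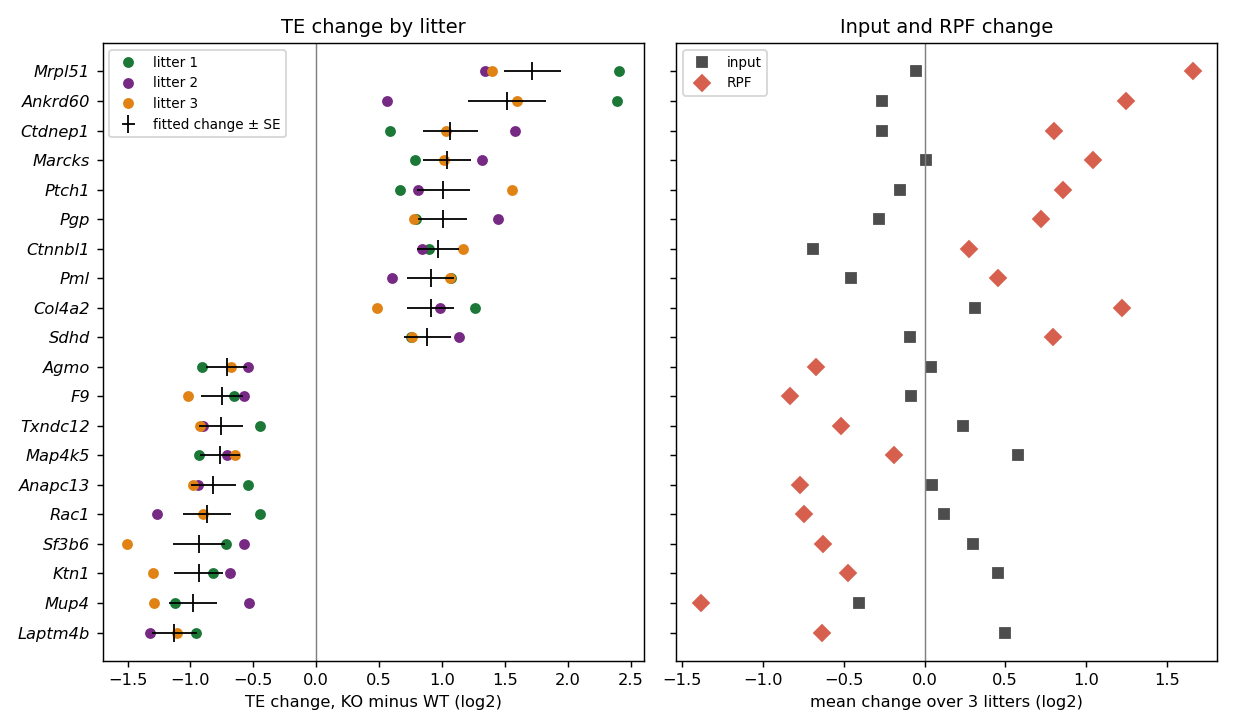
Left, TE change of the 10 higher and 10 lower genes of smallest p in each litter (points) with the fitted change ± SE (log2, KO minus WT). Right, mean change of input and RPF over the 3 litters; in most genes RPF moved further than input, with Ctnnbl1 and Map4k5 among the exceptions.

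The mean RPF change exceeded the mean input change in size in 184 of the 236 higher genes and 236 of the 276 lower genes, beside 3313 of all 5038 genes tested (65.8%). These genes were selected on TE, which holds both terms. Since TE is RPF minus input, errors of input enter it with the opposite sign. The higher genes had a median RPF change of 0.43 and input change of −0.16, and the lower genes −0.46 and 0.10.

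Gene classes were described by their median TE change relative to all genes in each litter. Counts of members called are set against 4.68% higher and 5.48% lower of all genes tested. Counts of one direction in 3 litters are set against 16.9% each way. All 52 classes had at least 5 genes tested, 1254 genes together. In 17 classes the 3 litters had one sign, 14 lower and 3 higher in KO, and in the other 35 the sign was mixed, with mean shifts from −0.39 to 0.16. Litters 2 and 3 had the same sign in 39 of the 52 classes, litters 1 and 2 in 23 and litters 1 and 3 in 24. Classes share the mice and some genes, so these counts are not independent. The 17 classes were described first because of their single sign, so that sign is not support for a shift. How many classes would have one sign without a genotype effect was not tested. The mean class shift had a Spearman rho of 0.43 with the class's median CDS GC content over the 52 classes. With the GC trend removed, 10 of the 17 kept their sign in all 3 litters, 7 lower and 3 higher.

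**Figure D4:**
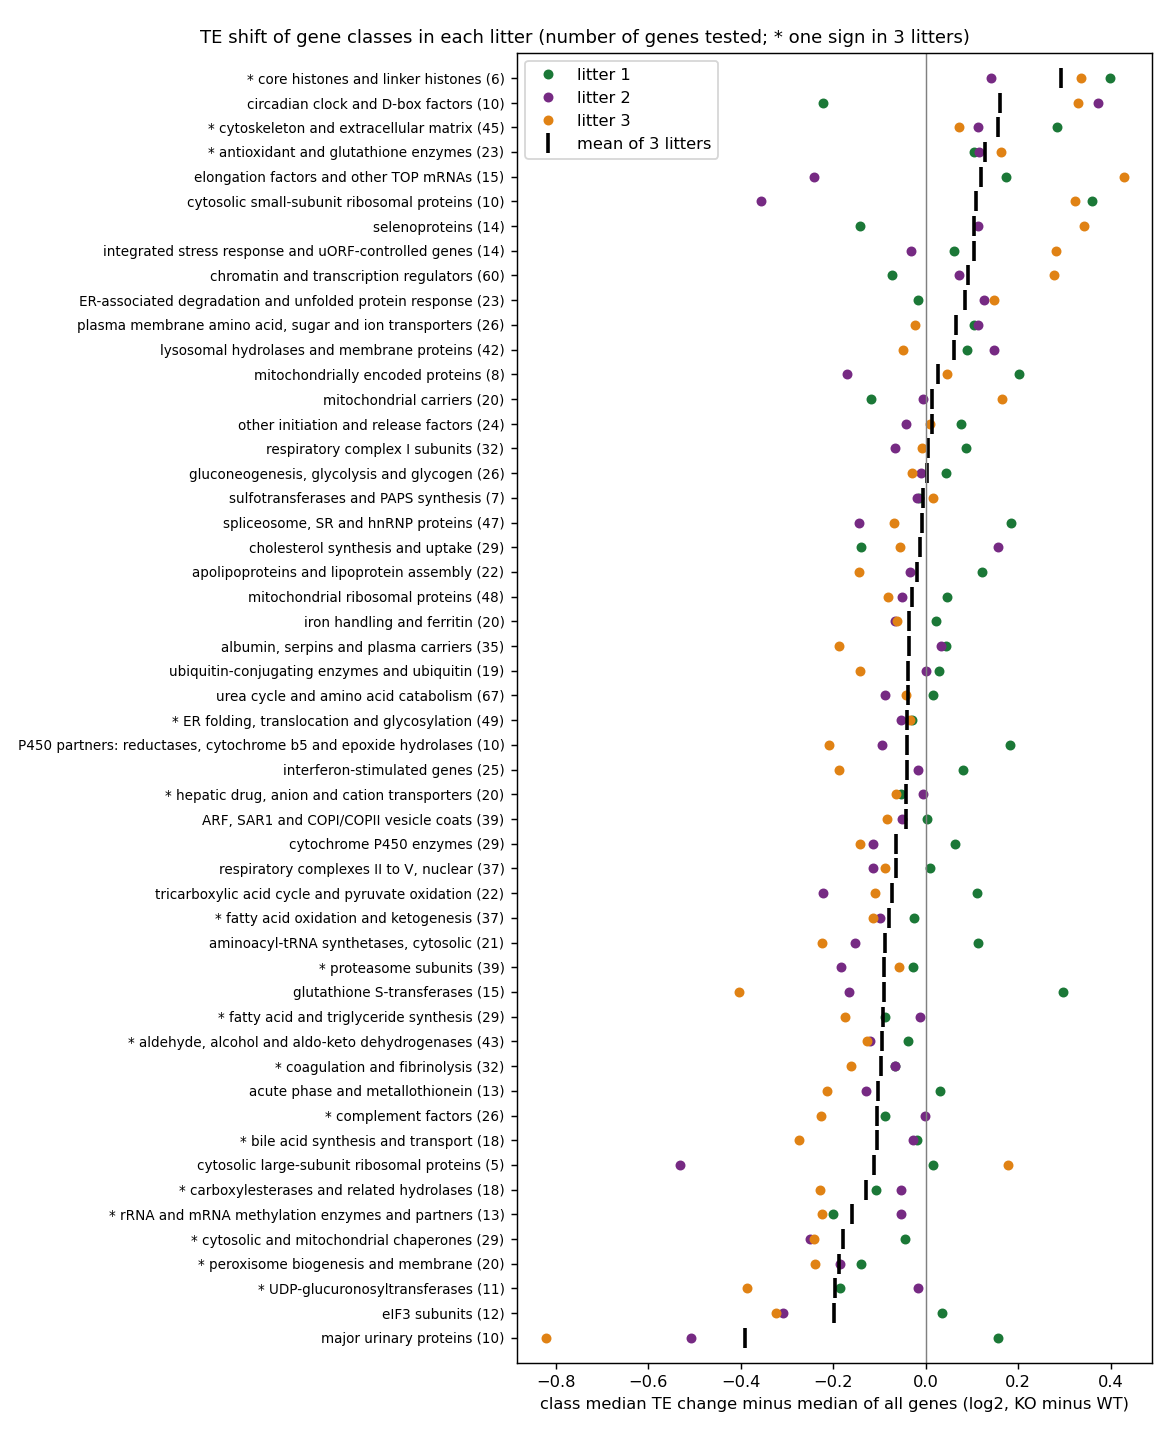
Each row is a gene class with the number of genes tested. Points give the class median TE change minus the median of all genes (log2, KO minus WT) in litters 1, 2 and 3 and bars their mean; an asterisk marks the 17 classes with one sign in 3 litters, such as peroxisome biogenesis and membrane at −0.14, −0.19 and −0.24.

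Peroxisome biogenesis and membrane genes were lower in every litter by a similar amount. Peroxisomes break down very long fatty acids and finish bile acid synthesis, and PEX proteins import their enzymes. The class shifted by −0.14, −0.19 and −0.24 in litters 1, 2 and 3 (mean −0.19 ± 0.050, SD of 3 litters, 20 genes). Of the 20 genes, 9 were lower in all 3 litters and 2 higher, or 45% and 10% against 16.9% of all genes each way. The unadjusted rule called 5 lower and 0 higher, against 5.48% and 4.68% of all genes. Its input shift was −0.023 and its RPF shift −0.17. Pex3, which docks membrane proteins at the peroxisome, had RPF of 164, 217 and 183 in WT and 122, 120.5 and 79.3 in KO, with input of 60.5, 65.8 and 55.1 in WT and 54.6, 65.1 and 43.2 in KO. Footprints of the genotypes did not overlap, input did, and the fitted TE change was −0.65 (SE 0.18, unadjusted p = 0.00602, limma adjusted p = 0.312). Exons of Pex3 overlap Adat2 on the opposite strand, and its part in these reads was not tested. Slc25a17, a cofactor carrier, had a TE change of −0.62, Pxmp4 one of −0.55, and Abcd3, a fatty acid transporter, one of −0.41. The 2 higher genes were Pxmp2, a membrane pore, and Pex6, an ATPase of receptor recycling, with 0.38 and 0.43. With a median CDS GC content of 54.4% the class lay above the median of all genes, and its shift after removal of the GC trend was −0.13, −0.28 and −0.28.

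Cytosolic and mitochondrial chaperones, which fold new and imported chains, shifted by −0.044, −0.25 and −0.24 (mean −0.18 ± 0.12, 29 genes). Of these, 25 had a negative fitted change, 12 were lower in all 3 litters and 2 higher. Input shifted by 0.0068 and RPF by −0.20. Within the TRiC ring, which folds actin and tubulin, Cct4 and Cct2 went opposite ways. Cct4 had RPF of 752, 914 and 714 in WT and 676, 589 and 467 in KO (TE −0.58, SE 0.18), whereas Cct2 had 951, 1588 and 1471 in WT and 904, 2143 and 2479 in KO (TE 0.49, SE 0.19). Cct4 footprints did not overlap between genotypes and those of Cct2 did. Pfdn1, a prefoldin subunit that hands substrates to TRiC, had a TE change of −0.61, and Stip1, which links the Hsp70 and Hsp90 machines, had −0.47. The cytosolic Hsp90aa1, the mitochondrial chaperonin Hspd1 and the cytosolic Hspa4 had −0.39, −0.38 and −0.36 without passing an unadjusted p of 0.05. The class kept its sign after removal of the GC trend (−0.019, −0.23 and −0.15).

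Genes of the secreted clotting and complement proteins, made by hepatocytes for plasma, had lower TE on balance. Coagulation and fibrinolysis genes shifted by −0.065, −0.067 and −0.16 (mean −0.098 ± 0.055, 32 genes). In all 3 litters 15 were lower and 4 higher, or 46.9% and 12.5% against 16.9% of all genes each way. Against 4.68% and 5.48% of all genes, 0 were called higher by the unadjusted rule and 4 lower. Besides F9 these were Cpb2, a carboxypeptidase that protects clots (−0.55, SE 0.16), Klkb1, plasma prekallikrein (−0.49), and F11, factor XI (−0.42), while Serpinc1, antithrombin, had 0.38 and Cpn2 0.30. The fibrinogen chains Fgb and Fgg had −0.32 and −0.31. For the coagulation class, input shifted by −0.070, −0.12 and 0.19 in litters 1, 2 and 3 and RPF by −0.096, −0.16 and 0.058. In litter 3 footprints were thus higher relative to all genes, and input was higher still. Complement genes shifted by −0.088, −0.0024 and −0.23 (26 genes). In all 3 litters 7 were lower and 3 higher, or 26.9% and 11.5% against 16.9% of all genes each way. Cfhr2, a complement regulator, had RPF of 2889, 2370.1 and 2146 in WT and 1465, 1184 and 1163 in KO, every KO value below every WT value, and TE changes of −0.46, −0.78 and −0.90 (edgeR adjusted p = 0.0263). Its input was 888, 882 and 684 in WT and 619, 759 and 691 in KO. C8a, a chain of the membrane attack complex, had −0.38, and Serping1, the C1 inhibitor, 0.34. Complement lost its single sign once the GC trend was removed, at 0.011 in litter 2, and coagulation kept it (−0.050, −0.030 and −0.12).

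Among classes of detoxification and of lipid and bile acid metabolism, several were lower, others were of mixed sign and antioxidant enzymes were higher. The mixed ones included cytochrome P450 enzymes (0.064, −0.11 and −0.14, 29 genes). Cholesterol synthesis and uptake was mixed too (−0.14, 0.16 and −0.056, 29 genes). UDP-glucuronosyltransferases, which tag drugs and bilirubin for excretion, shifted by −0.19, −0.016 and −0.39 (mean −0.20 ± 0.19, 11 genes, 6 lower and 1 higher in all 3 litters). The 1 higher gene was Ugdh (0.21, 0.27 and 0.016), a dehydrogenase counted in the class that is not a transferase. Both input (−0.24) and RPF (−0.47) were lower in this class. Ugt2b35 and Ugt3a1, at −0.46 and −0.48, were its only genes called by the unadjusted rule, and Ugt2b36 and Ugt2b34 had −0.34 and −0.35. The Ugt2b genes are close copies of each other, so their reads are uncertain, and the class turned to 0.089 in litter 2 after removal of the GC trend. Carboxylesterases and related hydrolases shifted by −0.11, −0.054 and −0.23 (18 genes, 7 lower and 1 higher), and reached 0.029 in litter 2 without the GC trend (mean −0.046). Among them Aadac, arylacetamide deacetylase, had RPF of 6285, 4776 and 4410.2 in WT and 3092, 2580.0 and 2111 in KO and a TE change of −0.69 (SE 0.21, edgeR adjusted p = 0.0498). Ces1b, Ces1e and Ces3b, with −0.36, −0.35 and −0.31, did not pass an unadjusted p of 0.05. Bile acid genes shifted by −0.018, −0.027 and −0.27, so that litter 3 gave most of the mean (18 genes, 9 lower and 3 higher), and turned to 0.033 and 0.086 in litters 1 and 2 once the GC trend was removed (mean −0.0096). Abcb4, the phospholipid flippase of bile, had a TE change of −0.46, Nr1h4, the bile acid receptor, one of −0.42, Baat, which conjugates bile acids, one of −0.38, and Amacr, a racemase of bile acid side chains, one of 0.83. Amacr rested largely on litter 1, with 1.72, 0.33 and 0.44. Drug, anion and cation transporters had the small shifts −0.054, −0.0066 and −0.065 (20 genes).

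Aldehyde, alcohol and aldo-keto dehydrogenases shifted by −0.038, −0.12 and −0.13 (43 genes, 13 lower and 3 higher in all 3 litters). Cbr4, a mitochondrial reductase, Aldh5a1, which clears a breakdown product of GABA, and Hsd17b11, a lipid droplet dehydrogenase, had TE changes of −0.53, −0.56 and −0.58, and Dhrs11 had 0.60. Fatty acid and triglyceride synthesis shifted by −0.087, −0.011 and −0.18 (29 genes, 9 lower and 5 higher), although its input shift was 0.14. Against 5.48% of all genes, 5 were called lower. The 5 were Lpin1, a phosphatidate phosphatase (−0.63), the chain-lengthening enzymes Elovl6 (−0.67), Elovl1 (−0.61) and Elovl5 (−0.46), and Hsd17b12 (−0.49), which acts in the same elongation cycle. The 5 genes higher in all 3 litters were 17.2% of the class, near the 16.9% of all genes, and the 9 lower genes were 31.0%, also against 16.9%. The 5 higher genes included Dgat2, Fads1, Acly and Fasn, with 0.32, 0.28, 0.16 and 0.084, and none of them had an unadjusted p under 0.05. Elovl6 input was 273, 552 and 309 in WT and 447, 617 and 373 in KO, and its RPF 193, 230.4 and 147 in WT and 169, 199.8 and 105 in KO. Input was thus higher and footprints lower in KO within each litter. Fatty acid oxidation and ketogenesis shifted by −0.025, −0.10 and −0.11 (37 genes), with Hadhb, a subunit of the trifunctional protein, as the only call at −0.57, from RPF of 140.3, 137 and 109 in WT and 87.6, 92.2 and 75.5 in KO. Acadl and Scp2 had −0.32 and −0.29. Both dehydrogenases and fatty acid synthesis kept their sign in all 3 litters when the GC trend was removed, as did fatty acid oxidation.

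Smaller shifts were found in protein turnover, ER folding and RNA methylation. Proteasome subunits shifted by −0.027, −0.18 and −0.058 (39 genes), with 6 called lower and 0 higher, against 5.48% and 4.68% of all genes. The 6 were the core subunits Psma3 (−0.73) and Psma6 (−0.55), the regulatory particle subunits Psmd7 (−0.47), Psmd14 (−0.46) and Psmd1 (−0.37), and the assembly chaperone Psmd9 (−0.51). Only 22 of the 39 had a negative fitted change, and the class shifted by 0.044 in litter 3 once the GC trend was removed. ER folding, translocation and glycosylation genes shifted by −0.030, −0.054 and −0.034 (49 genes), with Sec11a, Srpr and Spcs1 at −0.46, −0.45 and −0.47 and the oxidoreductase Ero1l at 0.56. The mean shift there was 0.0073 without the GC trend. A mixed class of rRNA and mRNA methylation enzymes and partners shifted by −0.20, −0.054 and −0.22 (13 genes, 0 called in either direction). Most of its tested genes are readers, demethylases or partner proteins and not methyltransferases. Nat10, the acetyltransferase of 18S rRNA, was at −0.51 (litters −0.68, 0.12 and −0.99) and the m6A readers Ythdf3 and Ythdf2 at −0.41 and −0.25. Nop58, a core protein of rRNA-methylating particles, was at 0.34. Without the GC trend this class was at −0.14, 0.12 and −0.22.

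Higher TE was seen in 3 classes. The 23 antioxidant and glutathione enzymes shifted by 0.11, 0.11 and 0.16 (mean 0.13 ± 0.031), with 8 higher and 3 lower in all 3 litters and 4 called higher by the unadjusted rule. Gpx1 had RPF of 17035, 12586 and 19482 in WT and 19712, 21215 and 25806 in KO, from input of 6378, 5788 and 6636 in WT and 5267, 5569 and 6072 in KO. All KO footprint values lay above all WT values, and the TE change was 0.61 (SE 0.17, edgeR adjusted p = 0.0269). Prdx1, a thiol peroxidase, had a TE change of 0.57 from RPF of 5291, 4120.0 and 5376 in WT and 5273, 5864 and 6468 in KO. Its input was lower in KO in each litter, and its CDS GC content of 42.7% lies below the median of all genes. Sephs2, which makes the selenium donor for selenocysteine, had a TE change of 0.48. Selenbp2, a selenium-binding protein, had a TE change of 0.50, while its input was 756, 995 and 1759.6 in WT and 215, 275 and 1583 in KO. Its mean change was −1.27 in input and −0.77 in RPF, so its higher TE came with lower mean footprints. Txn2, the mitochondrial thioredoxin, had −0.40. The class kept its sign without the GC trend (0.12, 0.048 and 0.17). Its input shifted by −0.069, −0.042 and −0.088 in litters 1, 2 and 3 and its RPF by −0.057, 0.075 and 0.12. Only input had a single sign.

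Cytoskeleton and extracellular matrix genes shifted by 0.28, 0.11 and 0.073 (mean 0.16 ± 0.11, 45 genes). Of these, 18 were higher in all 3 litters, or 40% against 16.9% of all genes, and 4 were lower. The unadjusted rule called 7 higher and 0 lower, against 4.68% and 5.48% of all genes. Without the GC trend the shifts were 0.22, 0.032 and 0.028, with a mean of 0.093. Sparc, a matrix glycoprotein, had RPF of 297, 203 and 254 in WT and 478, 318 and 685 in KO, which did not overlap, and a TE change of 0.62 (SE 0.16). Col4a1, the partner chain of Col4a2, had RPF of 94.97, 99.0 and 139 in WT and 155, 161 and 269 in KO and a TE change of 0.54, and Ltbp4, which anchors latent TGF-beta in the matrix, one of 0.52. The cytoskeletal members Actn4, Plec and Arpc1b, which crosslink or branch filaments, had 0.43, 0.49 and 0.56. Matrix genes are made mainly by stellate and endothelial cells. The summed input level of the 8 stellate cell and fibroblast markers was 284 to 308 CPM in WT and 333 to 462 in KO, without overlap, and that of the 7 endothelial markers found was 252 to 317 and 267 to 385. All of these markers had reads, and the part of cell composition in the class shift was not tested. In bulk tissue, more cells of a type and more RNA per cell cannot be told apart. Core and linker histones shifted by 0.40, 0.14 and 0.34, but only 6 of the 20 in the table were tested, and the mean of 0.29 was 0.17 without the GC trend, with 0.012 in litter 2. Hist1h4d was their only call (0.59, SE 0.18), H1f0 had 0.40, H2afy 0.16, and Hist1h1c had −0.28, −0.20 and 1.48.

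Classes closest to the ribosome itself showed no single direction. Of 33 small-subunit and 49 large-subunit ribosomal proteins listed, 18 and 24 were in the table and 10 and 5 were tested. The small-subunit genes shifted by 0.36, −0.36 and 0.32 and the large-subunit genes by 0.016, −0.53 and 0.18, a spread between litters wider than either mean. Elongation factors and other mRNAs with a terminal oligopyrimidine (TOP) start were likewise lowest in litter 2, with 0.17, −0.24 and 0.43 (15 genes). Within that list Eif4ebp2, a repressor of cap-dependent initiation, stood out with 0.94, 0.81 and 0.95 (edgeR adjusted p = 0.00900, limma adjusted p = 0.437). The 12 eIF3 subunits, which bring the small subunit to mRNA, all had negative fitted changes, led by Eif3k (−0.49) and Eif3m (−0.45), but the class shifted by 0.035 in litter 1 and by −0.31 and −0.32 in litters 2 and 3. Cytosolic aminoacyl-tRNA synthetases shifted by 0.11, −0.15 and −0.22, and other initiation and release factors by 0.076, −0.043 and 0.0085. Major urinary proteins had the lowest mean shift of all classes (0.16, −0.51 and −0.82, 10 genes), with input and RPF shifts of −0.90 and −1.37, and their reads are shared among near-identical copies. Glutathione S-transferases went from 0.30 in litter 1 to −0.17 and −0.40. Selenoproteins shifted by −0.14, 0.11 and 0.34. Against 4.68% of all genes, 4 of 14 were called higher (Selenoo, Gpx1, Sephs2 and Selenos, 0.63, 0.61, 0.48 and 0.51). In the integrated stress response list, Atf5, a transcription factor with upstream open reading frames, had 0.77 (edgeR adjusted p = 0.0194) and Eif2ak2, the kinase PKR, −0.81, while Atf4 had 0.24. Circadian clock genes shifted by −0.22, 0.37 and 0.33, and Per1 had 2.58, 1.41 and −1.01.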

How the data were processed

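Ribosome profiling and input RNA-seq of 6 livers (3 litters of 1 WT and 1 KO mouse) gave 12 libraries. The authors digested lysates with micrococcal nuclease, took monosome fractions, trimmed reads with BBDuk, mapped input with STAR to mm10, counted input pairs per gene by strand with featureCounts and processed footprints in RiboToolkit. The deposited gene counts are whole reads of the input libraries, and the deposited table of TE holds values the authors normalized (unit: signal), each a whole read number times a factor per library. Of the values, 100% were whole within 0.01 reads, and 100% of the input values matched the deposited counts. The authors' own fold changes and p-values in that table were not used.

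TE per mouse was log2(RPF + 1) minus log2(input + 1). Genes with means of at least 50 in both assays were fitted in limma 3.58.1 (R 4.3.3) with genotype and litter. Variances were moderated across genes with the trend and robust options of eBayes. Litters come from the labels, and deviations from the genotype means correlated at 0.154, 0.0846 and 0.0884 in littermates and at −0.120 to 0.0569 otherwise. edgeR 4.0.16 and DESeq2 1.42.0 were run on the recovered whole reads. Their model held a term per mouse, assay terms by litter and the genotype-by-assay interaction. edgeR used TMM factors over the 12 libraries and DESeq2 its own size factors, whereas the main limma fit kept the deposited scaling. Adjusted p-values in limma and edgeR are Benjamini-Hochberg values over all genes tested. DESeq2's own adjusted p-values were used, which were missing for 3614 of the genes tested. Class shifts are class medians minus the median of all genes. The GC trend was removed with a spline of 4 degrees of freedom. The scripts were tested on simulated data. The genes described are the 10 of smallest p higher and lower in all 3 litters, up to 4 per class of smallest p in classes of one sign, genes called in edgeR, and further class members given for context after their values were seen. The gene classes, the minimum and the tests were chosen with earlier results of these data known. Alternatives covered the litter block, pseudocount, minimum, scaling, GC and length trends, other tools and leaving out mice. Some genes and 1 gene class are not reported here.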

Additional observations from a re-analysis of the deposited data

How the results depend on the processing

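With litter as a block, 544 genes had an unadjusted p under 0.05, and without the block 464 had one, with 0 adjusted calls in either fit. The share of higher genes among them, 46.7%, was 56.4% when each mouse was centred on its median TE and 59.5% with TMM factors. Counts of adjusted calls were 21 in edgeR and 4 in DESeq2, and 0 to 5 when a litter, or a single mouse together with the block, was left out: Mrpl51 and mt-Nd3 without litter 2, and Mrpl51, Per1, Laptm4b, Col4a2 and Pgp without litter 3. Of these, mt-Nd3 (−2.44, 0.52 and −1.30 in litters 1, 2 and 3) and Per1 (2.58, 1.41 and −1.01) passed only when the litter of opposite sign was left out. The called numbers of 236 higher and 276 lower genes became 108 and 164 at a minimum mean of 200, 97 and 66 in DESeq2, and 140 to 388 and 155 to 457 over the same omissions, with 388 and 457 without KO1 and the block, 146 higher without KO2 and the block, and 140 and 155 without KO3 and the block, and 389 genes were higher without a filter. The 852 and 850 genes of one direction became 1397 and 1397 at a minimum mean of 10, 325 and 336 at 200, 1585 and 1600 without a filter, and 1308 to 1592 in either direction when a litter was left out, which asks for agreement of 2 litters only. The 17 classes of one sign were 11 with the GC and length trends removed and 23 to 39 when a litter was left out, with 39 without litter 1. The rho of the TE change with GC content, 0.44, was 0.32 to 0.45 over these omissions, and 0.0064 and 0.0082 once the GC trend, or the GC and length trends, had been removed, which follows from that removal. Of the 17 classes, 13 reversed under none of the alternatives tried. ER folding reached 0.0073 without the GC trend, 0.012 without the GC and length trends and 0.021 without WT replicate 1 and the block, where drug transporters reached 0.010. Proteasome subunits reached 0.00061 without the GC and length trends, and histones −0.0019 without a filter. The cause of these changes was not tested. The table's median gene had 36 to 96 input reads per library, and the median SE of a TE change over the genes tested was 0.19.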
